A study of Mus musculus with 8 samples.

Results

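The transcripts described here encode 7 enzymes of cholesterol synthesis, Hmgcs1, Mvd, Idi1, Fdps, Fdft1, Sqle and Lss. They were chosen by gene symbol among the 22740 protein-coding genes counted by RNA sequencing of mouse skin, and all 7 were among the 15163 genes that passed the filter on low counts. The skin came from 8 female BALB/c mice fed a low-fibre diet, each sequenced as 1 library, and the 4 groups held 2 mice each. CTL mice drank water, and butyrate mice drank water with 400 mM sodium butyrate, a short-chain fatty acid (SCFA) that gut bacteria make from fibre. Lesional skin had been shaved and exposed, in mice aged 6 to 8 weeks, to 4 patches of 15 µg of house dust mite (HDM) extract over 2 weeks, with butyrate started 2 weeks earlier and continued throughout. Baseline skin had received no HDM and was taken when the butyrate period ended. An age of 6 to 8 weeks is listed for all 8 mice, baseline mice included. Whether it is the age at which baseline skin was taken is not given. How long the baseline mice had drunk butyrate in all is not given in the sources used here. Mice with and without HDM came from differently numbered sets in the labels, and HDM exposure and any other difference between these sets of mice cannot be told apart. CTL and butyrate mice were also numbered differently within these sets, and what these numbers stand for is not given. Butyrate and any other difference between mice so numbered cannot be told apart either.

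Cholesterol is built from acetyl-CoA through mevalonate, isoprenoid diphosphates, squalene and lanosterol. In most cells the genes of this route are switched on together by the transcription factor SREBP-2, which is released from the endoplasmic reticulum when its sterol content falls and is held there by INSIG proteins when sterols are plentiful. In the epidermis, keratinocytes make cholesterol locally, and together with ceramides and free fatty acids it fills the space between the cells of the stratum corneum. Hmgcs1 encodes the cytosolic HMG-CoA synthase, which makes HMG-CoA ahead of mevalonate. Mvd decarboxylates mevalonate diphosphate, Idi1 isomerises isopentenyl diphosphate, and Fdps joins these units into farnesyl diphosphate, which also feeds protein prenylation. Fdft1, or squalene synthase, commits farnesyl diphosphate to sterols, Sqle epoxidises squalene, and Lss closes the rings to give lanosterol.

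The promoters of 4 of the 7 genes are shown because SREBP-2 acts on these genes through short sequences near their start, together with the general factors NF-Y and Sp1. Each run covers 250 bases before and 50 bases after the RefSeq start on GRCm38.p6, 5′ to 3′ on the gene's strand. Capitals mark matches on either strand to TCACNCCAC (a core of the sterol regulatory element), CCAAT (the NF-Y box) or GGGCGG (the GC box), and no matches overlapped each other. Hmgcs1 lies at chr13:119690101-119690400 on the plus strand, Idi1 at chr13:8885356-8885655 on the plus strand, Mvd at chr8:122443373-122443672 on the minus strand and Lss at chr10:76531355-76531654 on the plus strand.
Hmgcs1: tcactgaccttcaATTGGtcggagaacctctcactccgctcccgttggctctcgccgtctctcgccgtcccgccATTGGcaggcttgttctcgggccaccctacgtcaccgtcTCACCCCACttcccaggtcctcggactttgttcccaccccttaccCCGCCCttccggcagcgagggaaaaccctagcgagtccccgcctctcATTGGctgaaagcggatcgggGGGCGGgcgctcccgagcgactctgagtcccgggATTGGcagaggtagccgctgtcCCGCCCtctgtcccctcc
Mvd: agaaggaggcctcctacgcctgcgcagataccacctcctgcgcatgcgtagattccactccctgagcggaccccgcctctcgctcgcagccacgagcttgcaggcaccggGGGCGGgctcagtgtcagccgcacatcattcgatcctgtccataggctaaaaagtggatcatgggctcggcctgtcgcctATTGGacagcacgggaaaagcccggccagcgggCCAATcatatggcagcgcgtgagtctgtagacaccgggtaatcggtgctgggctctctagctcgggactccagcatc
Idi1: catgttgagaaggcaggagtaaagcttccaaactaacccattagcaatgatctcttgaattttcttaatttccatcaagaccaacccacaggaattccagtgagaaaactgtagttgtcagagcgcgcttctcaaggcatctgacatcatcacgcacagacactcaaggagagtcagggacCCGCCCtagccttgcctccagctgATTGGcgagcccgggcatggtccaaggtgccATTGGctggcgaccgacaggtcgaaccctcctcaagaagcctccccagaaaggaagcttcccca
Lss: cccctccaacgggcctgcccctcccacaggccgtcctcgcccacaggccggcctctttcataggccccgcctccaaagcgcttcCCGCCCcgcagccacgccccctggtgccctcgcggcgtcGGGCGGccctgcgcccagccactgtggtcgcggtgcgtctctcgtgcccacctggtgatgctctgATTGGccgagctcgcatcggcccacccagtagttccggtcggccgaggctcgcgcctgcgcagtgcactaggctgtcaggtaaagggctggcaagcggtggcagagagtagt

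The Hmgcs1 promoter held 1 match to the sterol regulatory core, in the form TCACCCCAC, 4 NF-Y boxes and 3 GC boxes. The Mvd and Idi1 promoters each held 2 NF-Y boxes and 1 GC box, and the Lss promoter held 1 NF-Y box and 2 GC boxes. Among all 32851 promoters of the same length, 1.24% held the sterol regulatory core, 37.4% an NF-Y box and 35.7% a GC box. The NF-Y box nearest before the start began 27 bases upstream in Mvd, 14 bases in Idi1, 45 bases in Hmgcs1 and 62 bases in Lss. Promoters of Fdps, Fdft1 and Sqle are not shown.

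The gene bodies lie on 6 chromosomes, with Hmgcs1 and Idi1 both on chromosome 13 (GRCm38, GENCODE vM21). Hmgcs1 (ENSMUSG00000093930) spans 119690379 to 119708260 and Idi1 (ENSMUSG00000058258) spans 8885501 to 8892451, both on the plus strand. Mvd (ENSMUSG00000006517) spans 122433601 to 122443422 of chromosome 8, minus strand, and Fdps (ENSMUSG00000059743) spans 89093588 to 89101959 of chromosome 3, minus strand. Fdft1 (ENSMUSG00000021273) spans 63145150 to 63179578 of chromosome 14, minus strand. Sqle (ENSMUSG00000022351) spans 59315077 to 59331192 of chromosome 15 and Lss (ENSMUSG00000033105) spans 76531588 to 76557138 of chromosome 10, both on the plus strand. Of the merged exon length of Fdps of 4208 bases, 3348 lie within a second annotated gene on the same strand, Gm43738, so that its counts carry an uncertainty from shared reads. In Fdft1, 774 of 4227 exon bases lie within the opposite-strand gene Ctsb, which had 13822 to 28415 counts. Opposite-strand genes also span all 1859 exon bases of Mvd (Gm20388, 0 counts in every library) and 7390 of 10787 in Lss (4930483K19Rik). They span 2139 of 4594 exon bases in Hmgcs1 (Gm48342) and 323 of 3505 in Idi1 (Gm48574). Apart from Ctsb and Gm20388, none of these overlapping genes, Gm43738 included, is among the genes counted. The counts are labelled reverse-stranded. How shared reads were assigned and whether the library kit kept the strand are not given in the sources used here.

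Library totals ranged from 18004136 to 21085544 counts, and 3 counts, used as the limit of detection, corresponded to 0.138 to 0.169 CPM, the counts scaled to the size of each library. The 7 genes had between 337 and 11121 counts in any library, far above that limit. The skin keratins were abundant in every library, as the summed level of 6 basal keratinocyte markers such as Krt5 and Krt14 was 7631 to 13200 CPM. Baseline butyrate replicate 3 stood apart from the other 7 libraries. Its 7 listed genes of growing hair follicles, led by Tchh, Krt71 and Krt25, summed to 16360 CPM against 15.4 to 27.5 CPM elsewhere, its 9 suprabasal keratinocyte markers to 4003 CPM against 15280 to 16640 CPM in the other baseline libraries, and its skeletal muscle markers to 10170 CPM against 40430 to 49310 CPM. The 2 baseline butyrate mice were more than 2-fold apart in 3675 genes, against 167 to 619 in the other pairs. The part of these differences in the results below was not tested, and only some results are also given without this mouse. For each gene the fit took its spread from all 4 groups. This unlike pair therefore also enters the tests of comparisons that do not include baseline butyrate skin. In bulk skin, a change in the number of the cells that express a gene and a change in its RNA per cell cannot be told apart.

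None of the 7 genes was called by edgeR in the fit of all 8 libraries, in any comparison between groups. Over all 8 mice, the highest level exceeded the lowest by 1.401-fold for Hmgcs1 and by 2.55-fold for Idi1, with the other 5 genes between these values. Per kilobase of merged exons, Hmgcs1 had by far the highest level at 82.5 to 116 CPM per kb over the 8 libraries. Fdft1 (20.4 to 32.5 CPM per kb), Fdps (17.0 to 30.1), Sqle (17.6 to 39.3) and Mvd (14.6 to 25.8) overlapped one another, and Idi1 (5.42 to 13.8) and Lss (7.03 to 10.7) were the lowest and also overlapped. Merged exons join all annotated transcripts of a gene, which for Lss were 8 transcripts over 10787 bases. The order between genes depends on this length, and which transcripts the skin made was not examined. Before this scaling Lss had 75.8 to 115.5 CPM.

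**Figure D1:**
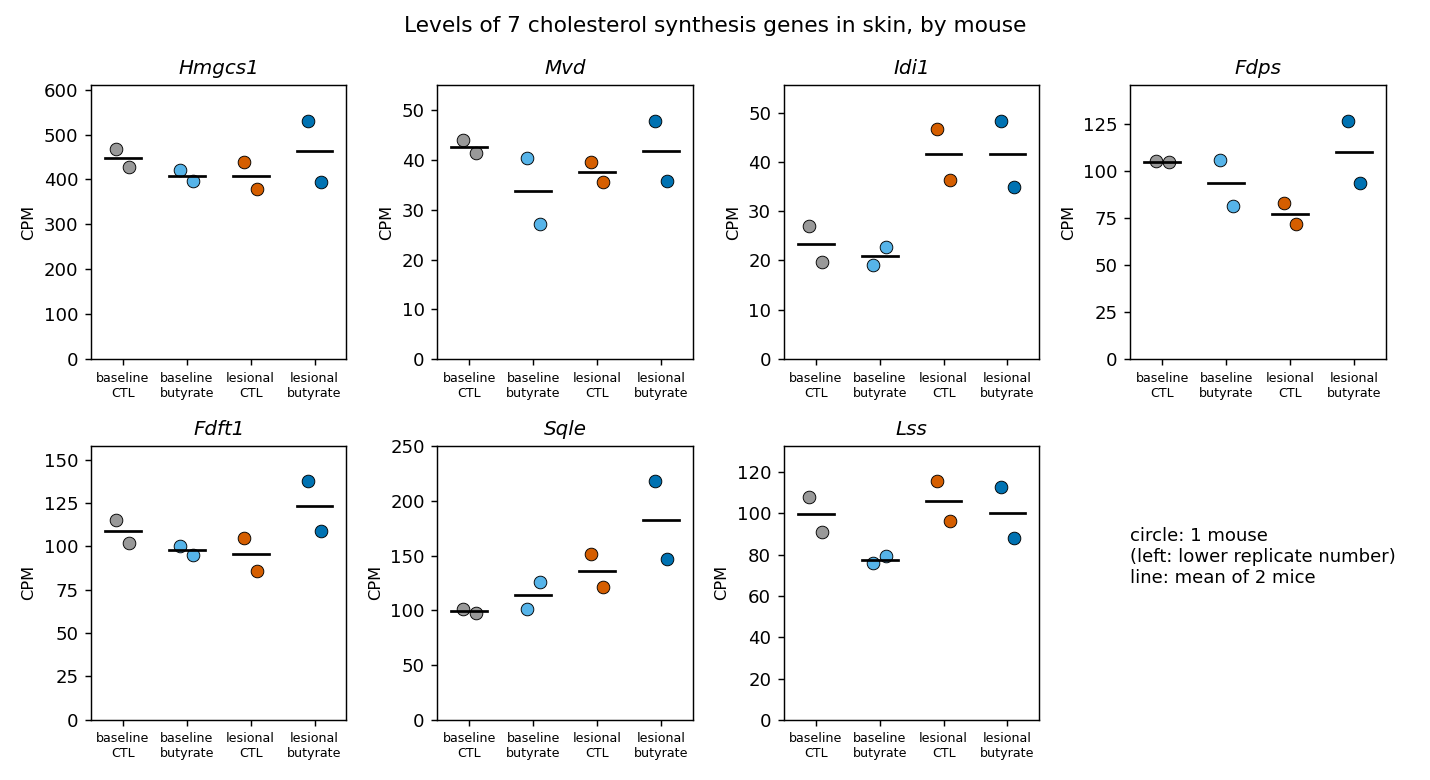
Level of each of the 7 genes in CPM (vertical axes, from 0) in the 4 groups (horizontal axes), with 1 circle per mouse and a line at the mean of 2 mice. Idi1 is the only one of the 7 in which all 4 lesional mice (34.8 to 48.4 CPM) lie above all 4 baseline mice (19.0 to 26.9 CPM).

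Hmgcs1, at the entry to the pathway, had 468.5 and 428.5 CPM in baseline CTL replicates 1 and 2 and 420.0 and 397 CPM in baseline butyrate replicates 1 and 3. It had 438 and 379 CPM in lesional CTL replicates 4 and 5 and 531 and 394 CPM in lesional butyrate replicates 3 and 4. The group means were in the order lesional butyrate (463 ± 96.5 CPM; SD, n = 2 here and for each mean below), baseline CTL (448.5 ± 28.3), and baseline butyrate and lesional CTL both at 408 CPM. Lesional butyrate overlapped each of the other groups, and of the groups that follow each other in this order only baseline CTL and baseline butyrate did not overlap. One mouse, lesional butyrate replicate 3, lay above all others.

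Mvd had 44.0 and 41.5 CPM in baseline CTL, 40.4 and 27.2 in baseline butyrate, 39.6 and 35.6 in lesional CTL and 47.9 and 35.9 CPM in lesional butyrate skin, in the same order of replicates. Its lowest value belonged to baseline butyrate replicate 3, the mouse with hair follicle transcripts. The groups overlapped in lesional skin with and without butyrate, and did not overlap between baseline CTL and either baseline butyrate or lesional CTL skin.

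Idi1 set lesional skin apart from baseline skin. It had 26.9 and 19.7 CPM in baseline CTL and 19.0 and 22.8 CPM in baseline butyrate skin, against 46.8 and 36.4 CPM in lesional CTL and 48.4 and 34.8 CPM in lesional butyrate skin. Its group means were 23.3 ± 5.09 and 20.9 ± 2.67 CPM at baseline and 41.6 ± 7.35 and 41.6 ± 9.58 CPM in lesional skin, and within each skin state the CTL and butyrate mice overlapped.

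Fdps had nearly equal levels in baseline CTL mice, at 105.4 and 104.4 CPM. It had 105.7 and 81.5 CPM in baseline butyrate, 83.0 and 71.6 CPM in lesional CTL and 127 and 93.5 CPM in lesional butyrate skin. The lowest group was lesional CTL (77.3 ± 8.08 CPM), which lay below both lesional butyrate mice and both baseline CTL mice.

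Fdft1, the first enzyme of the sterol branch, had 115 and 102 CPM in baseline CTL, 100.3 and 95.1 in baseline butyrate, 105 and 86.1 in lesional CTL and 137.5 and 109 CPM in lesional butyrate skin. Both lesional butyrate mice lay above the lesional CTL and baseline butyrate mice, and 1 of them lay between the baseline CTL mice. Sqle, which catalyses an oxygen-dependent and rate-limiting step, had 101 and 97.6 CPM in baseline CTL, 102 and 126 in baseline butyrate, 151.5 and 121 in lesional CTL and 218 and 147 CPM in lesional butyrate skin. Its group means were ordered baseline CTL (99.3 ± 2.37 CPM), baseline butyrate (114 ± 17.3), lesional CTL (136 ± 21.5) and, highest, lesional butyrate (182 ± 50.4). Of the neighbours in this order only baseline CTL and baseline butyrate did not overlap. Lss had 108 and 91.1 CPM in baseline CTL, 75.8 and 79.4 in baseline butyrate, 115.5 and 96.4 in lesional CTL and 113 and 88.0 CPM in lesional butyrate skin. Only the baseline butyrate mice were set apart, below all the others.

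The first comparison asked whether butyrate changed these genes in skin exposed to HDM. None of the 7 passed the threshold (FDR below 0.1, fold-change above 2), and 6 of 7 had a higher fitted mean with butyrate. Fdps differed most, by 0.51 on the log2 scale (standard error 0.20, 95% interval 0.02 to 1.00), an unadjusted p of 0.0441 and an FDR of 0.995 by edgeR's quasi-likelihood test. Sqle differed by 0.42 (standard error 0.23) and Fdft1 by 0.37 (0.17) on the log2 scale, with intervals of -0.14 to 0.98 and -0.05 to 0.78. Hmgcs1 (0.18), Mvd (0.16), Idi1 (0.00059) and Lss (-0.08) differed by less than their standard errors. Idi1 fell on the other side of 0 with other scalings, at -0.00235 with the size factors of DESeq2.

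The median log2 fold change of the 7 genes was 0.18, against -0.01 over all 15163 genes tested. Only Fdps and Fdft1, 2 of 7, were higher in both butyrate mice than in both CTL mice, where 22.4% of all genes were, and 0 of 7 were lower in both, where 22.5% were. One gene, Fdps, had an unadjusted p below 0.05, as had 4.84% of all genes (734), and edgeR called 0 genes (0% of those tested), limma-voom 1 and DESeq2 124, none of them among the 7. The median rested on lesional butyrate replicate 3. Without this mouse it was -0.05 and 3 of 7 genes were higher, Fdps by 0.27, Fdft1 by 0.19 and Sqle by 0.11, and without replicate 4 it was 0.38.

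In baseline skin, 6 of the 7 genes had a lower fitted mean with butyrate and none passed the threshold. Sqle was higher by 0.20 (log2 scale, standard error 0.23) and the other 6 were lower, from -0.14 for Hmgcs1 to -0.36 for Lss (standard error 0.18, unadjusted p = 0.0881, FDR = 0.714 by edgeR). The median was -0.16, against 0.00121 over all genes. Hmgcs1, Mvd, Fdft1 and Lss (4 of 7) were lower in both butyrate mice than in both CTL mice, where 15.9% of all genes were, and Sqle was higher, where 13.8% were. None of the 7 had an unadjusted p below 0.05, as 3.49% of all genes had (529), and edgeR called 0 genes (0%) against 58 with DESeq2. The butyrate mice had unlike marker levels, and the size of the difference for Mvd depended on which was kept. It was -0.65 with replicate 3 alone and -0.08 with replicate 1 alone, and Fdps was 0.01 with replicate 1 alone.

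Butyrate's effect in lesional skin minus that in baseline skin was above 0 for all 7 genes, from 0.16 for Idi1 to 0.67 for Fdps on the log2 scale, with a median of 0.32 against -0.04 over all genes. For Fdps the standard error was 0.29, the interval -0.02 to 1.37 and the unadjusted p 0.0549. For Fdft1 it was 0.52 (standard error 0.24, interval -0.06 to 1.11). None of the 7 had an unadjusted p below 0.05, as 4.64% of genes had, the smallest FDR was 0.84 by edgeR, and 0% of genes were called. Without lesional butyrate replicate 3, 5 of 7 differences were above 0 and the median was 0.09. The baseline butyrate mouse that was kept changed the values, as the difference for Mvd was 0.24 without replicate 3 and 0.81 without replicate 1, and that for Fdps 0.50 and 0.88. Without replicate 3, the smallest FDR of the 7 was 0.639 by edgeR.

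**Figure D2:**
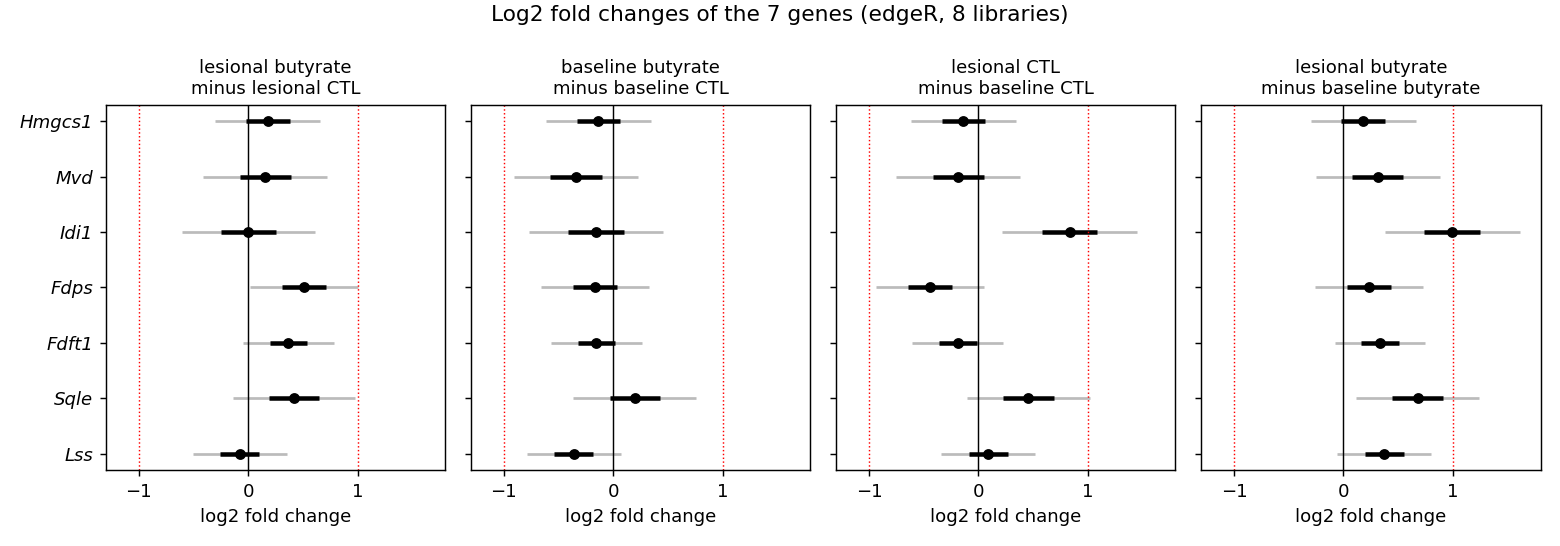
Log2 fold changes (horizontal axes) of the 7 genes in the 4 comparisons between groups, with black bars for 1 standard error, grey bars for the 95% interval and dotted lines at a fold-change of 2. Only Fdps lies clear of 0 with butyrate in lesional skin (0.02 to 1.00), Idi1 does so in both comparisons of lesional with baseline skin, and Sqle in butyrate-treated mice (0.12 to 1.24).

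Lesional CTL skin was compared with baseline CTL skin to see how these genes stood after HDM without butyrate. Idi1 was higher by 0.83 on the log2 scale (standard error 0.25, interval 0.22 to 1.45), an unadjusted p of 0.0156 and an FDR of 0.161 by edgeR. Sqle was higher by 0.46 (standard error 0.23) and Fdps lower at -0.44 (standard error 0.20), with FDR values of 0.326 and 0.289. The other 4 lay between -0.19 for Fdft1 and 0.09 for Lss, and the median of the 7 was -0.14 against -0.02 over all genes. None of the 7 was among the 543 genes called (3.58%), and 1 of 7 had an unadjusted p below 0.05, against 19.7% of all genes. Idi1 and Sqle (2 of 7) were higher in both lesional mice, where 36.7% of genes were, and Mvd and Fdps (2 of 7) were lower in both, where 38.5% were. With only these 4 libraries in the fit, Fdps (FDR = 0.0161), Idi1 (0.0206) and Sqle (0.0278) were below an FDR of 0.1 by edgeR with folds under 2, as were, at any fold, 50.5% of the 14863 genes tested in that fit.

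In butyrate-treated mice, all 7 genes had a higher fitted mean in lesional than in baseline skin, by 0.18 for Hmgcs1 to 0.99 for Idi1 on the log2 scale. Idi1 (standard error 0.25, interval 0.38 to 1.61) had an unadjusted p of 0.00733 and an FDR of 0.244, and Sqle, at 0.68 (standard error 0.23, interval 0.12 to 1.24), had an FDR of 0.314 by edgeR. Lss (0.37), Fdft1 (0.33), Mvd (0.31) and Fdps (0.23) followed, and the median was 0.33 against -0.04 over all genes. These lower values rested on single mice, as Mvd was 0.055 and Fdps 0.0595 without baseline butyrate replicate 3, Mvd was 0.0902 and Fdps 0.00169 without lesional butyrate replicate 3, and without the latter mouse the median was 0.16, against 0.52 without lesional butyrate replicate 4. None of the 7 was called, as were 53 genes (0.350%), 2 of 7 had an unadjusted p below 0.05, as had 13.1% of genes, and 4 of 7 (Idi1, Fdft1, Sqle and Lss) were higher in both lesional mice, as were 15.7% of genes. No member was lower in both lesional mice, as 16.9% of genes were. Idi1 was called with DESeq2 (log2 fold change 1.005, FDR = 0.0274), which called 698 of the 15163 genes tested. Without baseline butyrate replicate 3 the log2 fold change of Idi1 was 1.13 by edgeR. In the latter fit the single baseline butyrate mouse was assumed to vary like the other groups. The 4 comparisons share groups of mice, so that their directions are not independent of one another.

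In 3 of the 4 groups, all 7 genes differed between the 2 mice in 1 direction. All 7 were higher in lesional butyrate replicate 3 than in replicate 4, by 1.26-fold to 1.49-fold, where 49.0% of all genes were. All 7 were likewise higher in lesional CTL replicate 4 than in replicate 5, by 1.11-fold to 1.29-fold (49.7% of all genes), and in baseline CTL replicate 1 than in replicate 2, by 1.01-fold to 1.37-fold (52.5% of all genes). In baseline butyrate skin, 4 of 7 were higher in replicate 1 than in replicate 3, against 51.0% of all genes. Mice of 1 group share their treatment, so these differences lie within groups and no test was made of them. Lesional butyrate replicate 3 had the highest level of 6 of the 7 genes, Lss being highest in lesional CTL replicate 4.

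The summed markers of other cell types also differed within these pairs. Between lesional butyrate replicates 3 and 4, fibroblast markers summed to 3309 and 8403 CPM and skeletal muscle markers to 13770 and 24820 CPM. Neutrophil markers summed to 810 and 374 CPM, while basal keratinocyte markers summed to 13060 and 13200 CPM. Most of these neutrophil sums was S100a8 (265 and 102 CPM) and S100a9 (445 and 169 CPM). Cxcr2 and Il1r2 were also higher in replicate 3, Csf3r was lower (24.3 against 46.9 CPM) and Ly6g had 0 counts in both. Between lesional CTL replicates 4 and 5, basal keratinocyte markers summed to 13100 and 11530 CPM, muscle markers to 17310 and 24170 CPM and fibroblast markers to 6217 and 6917 CPM. Between baseline CTL replicates 1 and 2, the sums were 11820 and 11250 CPM for basal keratinocytes, 40430 and 49310 CPM for muscle and 1466 and 873 CPM for the 8 sebaceous gland markers. In these 3 pairs the mouse with the higher levels of the 7 genes had the lower muscle, fibroblast, macrophage and adipocyte sums. It also had the higher sebaceous gland and hair follicle sums. The sums of basal and suprabasal keratinocyte, neutrophil and cell cycle markers did not keep 1 direction over the 3 pairs. The part of tissue composition in the levels of the 7 genes was not tested.

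**Figure D3:**
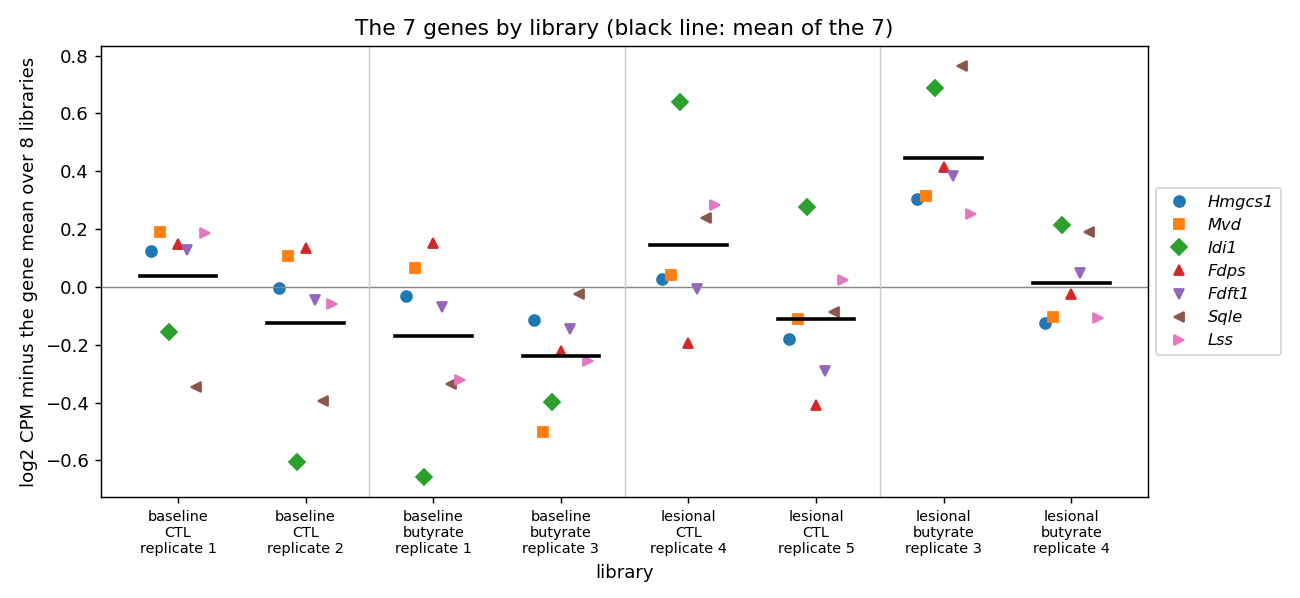
Log2 CPM of each gene minus its mean over the 8 libraries (vertical axis) by library (horizontal axis), with a symbol per gene and a black line at the mean of the 7. Lesional butyrate replicate 3 has the highest mean (0.45) and baseline butyrate replicate 3 the lowest (-0.24), while Idi1 and Sqle lie below the other genes in baseline CTL mice and above them in lesional butyrate replicate 4.

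Over the 8 libraries, the mean of the 7 centred log2 values ran from -0.24 in baseline butyrate replicate 3 to 0.45 in lesional butyrate replicate 3. Pairs of genes followed each other unequally. Pearson's r of log2 CPM was highest for Hmgcs1 with Fdft1 (0.909), Fdps with Fdft1 (0.846), Idi1 with Sqle (0.836) and Hmgcs1 with Fdps (0.816), and lowest for Idi1 with Fdps (-0.0778). Hmgcs1, Mvd, Fdps and Fdft1 thus ran closely together (r = 0.686 to 0.909), and Idi1 ran with Sqle (0.836) and Lss (0.773). Sqle and Lss followed each other less (0.495) than Lss followed Hmgcs1 (0.627) or Sqle followed Fdft1 (0.593). These values are over n = 8 libraries that share 4 groups and the library scaling, and are given as a description.

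Among the other tested genes, the one whose log2 CPM followed the mean of the 7 most closely was Slc17a5 (r = 0.965), a lysosomal sialic acid transporter. Gpr160 (0.961), Bicd2 (0.947), Slc19a2 (0.941), a thiamine transporter, Egln3 (0.940), an oxygen-dependent prolyl hydroxylase, and Tmem79 (0.934) followed. Cyp51 (0.933), the lanosterol demethylase that acts directly after Lss, ranked next, ahead of Pkp1 (0.932), a desmosomal plakophilin, Ide (0.932) and Madd (0.929). Cyp51 had 253 and 179 CPM in baseline CTL, 176 and 141 in baseline butyrate, 270.1 and 211 in lesional CTL and 323 and 213.5 CPM in lesional butyrate skin. Its 8 levels stood in the same order as the mean of the 7 genes, which was the case for no other of these 10. The median r was 0.59 over 14 other genes of cholesterol synthesis, 0.65 over the 8 sebaceous gland markers, 0.51 over the 5 neutrophil markers tested, 0.44 over the 6 basal keratinocyte markers and -0.03 over all other tested genes.

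Of 14 other genes of cholesterol synthesis, 12 were higher and 2 lower with butyrate in lesional skin, with a median log2 fold change of 0.14, 0 were called, 2 had an unadjusted p below 0.05 (4.84% of all genes) and 6 were higher in both butyrate mice (22.4% of all genes). Those described here are Dhcr7, a sterol reductase late in the route, and Acat2, the thiolase that starts it. Dhcr7 had 66.7 and 68.5 CPM in lesional CTL against 107 and 96.2 CPM with butyrate, and differed by 0.59 on the log2 scale (standard error 0.17, unadjusted p = 0.0119, FDR = 0.838 by edgeR). Acat2 had 71.6 and 58.7 against 96.5 and 79.3 CPM (0.43, unadjusted p = 0.0847). In butyrate-treated mice, 13 of these 14 genes were higher in lesional than in baseline skin, with a median of 0.35 and none called. In baseline skin, 9 of 14 were lower with butyrate (median -0.20), and in CTL mice 8 of 14 were lower in lesional skin (median -0.04).

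The genes that govern the pathway were also counted. Of 7 genes of SREBP control, 4 were higher and 3 lower with butyrate in lesional skin, 0 were called and the median was 0.11. Srebf2, which encodes SREBP-2, had 162 and 144 CPM in lesional CTL and 174 and 156 CPM in lesional butyrate skin (log2 fold change 0.11, standard error 0.16). Srebf1 had 149.5 and 148 against 146 and 190.1 CPM (0.18, standard error 0.18). Insig1, itself an SREBP target, had 54.9 and 76.4 against 85.7 and 82.8 CPM (0.36, standard error 0.33), and Insig2 had 87.5 and 88.9 against 154 and 123 CPM (0.65, standard error 0.45). Insig2 was highest, at 270.3 CPM, in baseline butyrate replicate 3.

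Genes that take up, move and export sterols did not share a direction. Of 8 genes of uptake and intracellular traffic, 2 were higher and 6 lower with butyrate in lesional skin, 0 were called and the median was -0.13. Stard4, a sterol carrier, had 59.0 and 53.2 CPM in lesional CTL and 95.7 and 67.7 CPM in lesional butyrate skin (0.54, standard error 0.20, unadjusted p = 0.0359), while Npc1 (-0.16) and Npc2 (-0.17), which release cholesterol from lysosomes, differed by less than their standard errors. Of 9 genes of efflux, esterification, sulfation and oxysterols, 6 were higher and 3 lower, and the median was 0.04. The 3 lower genes included Abca1, a cholesterol exporter, which had 281 and 278 CPM in lesional CTL and 175 and 185 CPM with butyrate, for a fitted log2 difference of -0.64 (standard error 0.17, unadjusted p = 0.00798, FDR = 0.745 by edgeR). Soat1, which esterifies cholesterol, had 182 and 150.3 against 229 and 223 CPM (0.45, standard error 0.15). Ch25h, which makes an oxysterol, had 3.47 and 4.06 against 1.34 and 2.00 CPM (-1.17, standard error 0.44). It was the only gene of the sterol and fatty acid lists that edgeR called in any comparison over the 8 libraries, as it rose by 1.95 on the log2 scale (FDR = 0.0993 by edgeR) from 1.06 and 0.888 CPM in baseline CTL to lesional CTL skin.

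Fatty acid synthesis, the other lipid route under SREBP control, was counted beside them. All 11 of its genes had a higher fitted mean with butyrate in lesional skin, with a median log2 fold change of 0.54, 7 higher in both butyrate mice (22.4% of all genes), 2 with an unadjusted p below 0.05 (4.84% of all genes) and 0 called. Elovl6, a fatty acid elongase, had 733 and 528.5 CPM in lesional CTL and 1411 and 1204 CPM in lesional butyrate skin (1.05, standard error 0.37, FDR = 0.947 by edgeR). Acly, which makes cytosolic acetyl-CoA for both routes, had 285 and 352 against 487 and 549 CPM (0.70, standard error 0.27), and Acaca 88.6 and 128 against 159 and 185 CPM (0.67, standard error 0.39). Within the lesional butyrate pair Acly and Acaca were higher in replicate 4, and thus did not follow the 7 genes, and the median r of the 11 genes with the mean of the 7 was -0.05.

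**Figure D4:**
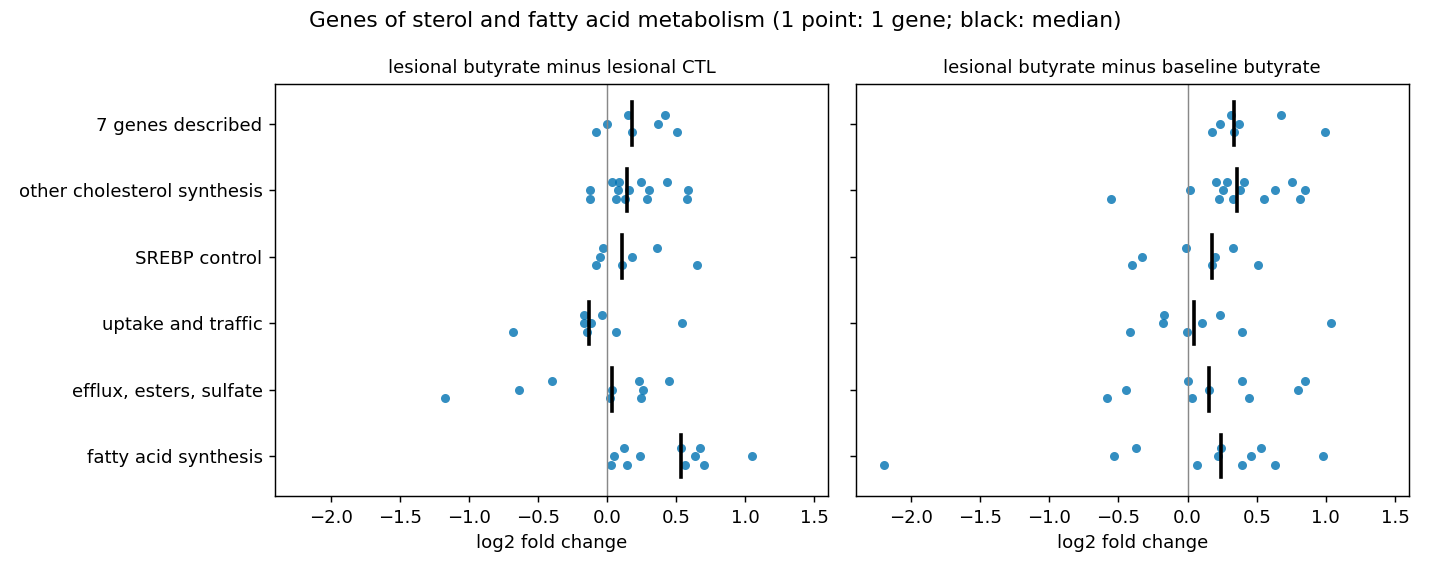
Log2 fold change (horizontal axes) of each gene (1 point) in 6 lists of sterol and fatty acid metabolism (vertical axis), with a black line at each median, for butyrate against CTL in lesional skin and for lesional against baseline skin in butyrate-treated mice. The medians of the 7 genes are 0.18 and 0.33, and that of fatty acid synthesis is highest on the left at 0.54.

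Summed markers of other cells of the skin are given beside these values. With butyrate in lesional skin, suprabasal keratinocyte markers such as Krt10 summed to 15570 and 11880 CPM against 5485 and 6631 CPM in CTL, and neutrophil markers to 810 and 374 CPM against 2682 and 1667 CPM. S100a8 and S100a9 made up most of these neutrophil sums. Basal keratinocyte markers summed to 13060 and 13200 CPM against 13100 and 11530 CPM, and sebaceous gland markers to 1198 and 1096 CPM against 1041 and 894 CPM. Between baseline and lesional CTL skin, where Idi1 had its higher level in lesional skin, muscle sums were 40430 and 49310 CPM against 17310 and 24170 CPM, and neutrophil sums 78.8 and 79.4 CPM against 2682 and 1667 CPM. Macrophage sums were 309 to 1342 CPM, adipocyte sums 1383 to 2394 CPM and cell cycle sums 236 to 709 CPM over the 8 libraries, with the lowest macrophage sum and the highest cell cycle sum in baseline butyrate replicate 3. The part of these cells in the levels of the 7 genes was not tested.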

How the data were processed

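RNA of dorsal skin was sequenced from 8 mice with the Illumina TruSeq kit. The authors used STAR for alignment to GRCm38 and featureCounts for quantification, and deposited raw counts of protein-coding genes without normalization; the submitters' processing notes give STAR 2.5.2. The paper names the gene models only as those of the iGenomes GRCm38 reference. The counts are labelled reverse-stranded, but whether the kit kept the strand is not given in the sources used here. The design text counts 16 samples, of which 8 were analysed here.

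Groups were taken from the labels, reading vehicle as CTL and SCFA as butyrate. CPM (counts scaled to library size) were computed on TMM-scaled library sizes (factors 0.944 to 1.04). edgeR 4.0.16 in R 4.3.3 (filterByExpr, minimum count 10; glmQLFit with robust estimation) fitted a mean per group to all 8 libraries, with 4 residual degrees of freedom and a common biological coefficient of variation of 0.276. Tests were two-sided, with Benjamini-Hochberg FDR over 15163 genes, and genes were called at an FDR below 0.1 and a fold-change above 2, the thresholds of the study. The labels number the mice but do not say how they were housed, so p-values measure the spread between these mice, and an exact permutation test of 2 against 2 cannot go below 0.333. The tests were also run on simulated counts. The settings and results of that check are not given here, and no conclusion about the tests in these mice is drawn from it. Intervals of fold changes are 95% and rest on the spread between mice in the fit, while limits of detection from counts cover counting error only.

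The 7 genes and the 16 lists (127 genes, 124 of them found, Msmo1 and Adgre1 by identifier) were chosen with earlier results of these data known. Genes named beside the 7 were regulators fixed by name, the 3 per list with the largest absolute log2 fold change with butyrate in lesional skin and a mean of at least 1 CPM, Cyp51 and the other 9 most similar genes by Pearson correlation, and the most abundant markers. Some genes of the pathway are counted within their lists and not reported by name here. Promoter sequences were taken from RefSeq (GRCm38.p6) for 4 of 7 genes, and locations from GENCODE vM21. Alternatives were DESeq2 1.42.0, limma-voom (limma 3.58.1), DESeq2 size factors, no filter on low counts, fits of only the compared libraries, leaving out each mouse and, added after seeing the data, an FDR threshold alone.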

Additional observations from a re-analysis of the deposited data

Results flagged for a closer look

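Fdft1, squalene synthase, was singled out because its levels moved in opposite directions with butyrate in the 2 skin states. Both butyrate mice lay above both CTL mice in lesional skin (137.5 and 109 against 105 and 86.1 CPM) and below both in baseline skin (100.3 and 95.1 against 115 and 102 CPM). Of all tested genes, 22.4% lay above in lesional skin and 15.9% below in baseline skin. The share that did both was not counted, so this pattern is not shown to be unusual. The difference between the effects was 0.52 on the log2 scale, with a standard error of 0.24, and it did not pass the test (unadjusted p = 0.0726, FDR = 0.84 by edgeR's quasi-likelihood test). It ranged from 0.35 without lesional butyrate replicate 3 to 0.69 without lesional butyrate replicate 4. Fdps had a larger difference of effects (0.67), but its groups overlapped in baseline skin.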

How the results depend on the processing

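No paired analysis was possible because no 2 compared groups have more than 1 replicate number in common. Of 448 log2 fold changes of the 7 genes under the alternatives, 428 kept their direction and their side of the threshold, 18 changed sign and 2 gained a call, and 67 of 69 counts of called members equalled the reported ones. Both gained calls were Idi1 in lesional against baseline skin of butyrate-treated mice, 1 member called with DESeq2 and 0 to 1 when each mouse was left out. Changes of sign came from Idi1 with butyrate in lesional skin (-0.00235 with DESeq2 size factors, -0.00229 with DESeq2, -0.00423 with limma-voom) and from leaving out 1 mouse. With butyrate in lesional skin the left-out ranges were -0.0494 to 0.38 for Hmgcs1 and also for the median, -0.068 to 0.35 for Mvd, -0.26 to 0.22 for Idi1 and -0.27 to 0.0922 for Lss. They were -0.37 to 0.0107 for Fdps and -0.37 to 0.0818 for Idi1 with butyrate in baseline skin, -0.0445 to 0.22 for Lss in lesional against baseline CTL skin and -0.0466 to 0.40 for Hmgcs1 in lesional against baseline butyrate skin. For the difference of the butyrate effects they were -0.10 to 0.38 for Idi1, -0.0894 to 0.49 for Sqle and 0.0949 to 0.52 for the median. Lowest or highest values came without lesional butyrate replicate 3 or 4 for most of these, and the cause was not tested.

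Counts of called genes depended on the method. With butyrate in lesional skin, 0 genes became 124 with DESeq2, 1 with limma-voom, 25 with only the 4 libraries compared and 0 to 191 with 1 mouse left out. In baseline skin 0 became 58 with DESeq2 and 0 to 3777 with 1 mouse left out. In lesional against baseline CTL skin 543 became 1093 with DESeq2, 1918 with only the 4 libraries and 0 to 1936 with 1 mouse left out. In butyrate-treated mice 53 became 698 with DESeq2, 0 with only the 4 libraries and 0 to 2990 with 1 mouse left out, and for the difference of effects 0 became 37 with DESeq2 and 0 to 3275. The upper ends came without baseline butyrate replicate 1. Without replicate 3, the other mouse of this pair, the counts were nearly as high for butyrate in lesional skin and for lesional against baseline CTL skin. In the other comparisons they were lower. Each of these fits left a single mouse in the baseline butyrate group. With 2 mice per group the standard errors of the members in comparisons between groups were 0.171 to 0.254 on the log2 scale, and the 95% intervals reached 0.414 to 0.616 to either side (0.586 to 0.864 for the difference of effects), so smaller differences had intervals that included 0, while the depth gave every member at least 337 counts in every library.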
